A study of Mus musculus with 13 samples.

Results

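The genes Ucn3, Nts, Crh and Crhbp, 4 of the 16961 genes measured, were followed cell by cell in neurons of the mouse medial amygdala. They were taken by name and not by a threshold on a measured value. Each neuron was typed as inhibitory or excitatory by its counts of Slc32a1, the vesicular GABA transporter, and Slc17a6, a vesicular glutamate transporter. A gene was called detected in a cell at 1 UMI (a unique molecular identifier, which marks 1 captured mRNA molecule) or more, and 47 kept neurons held Ucn3, 177 held Nts, 95 held Crh and 44 held Crhbp, of 3615.

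Crh encodes corticotropin-releasing hormone, which starts the hormonal stress response from the hypothalamus and acts as a transmitter elsewhere in the brain. Urocortin 3, the product of Ucn3, is a related peptide that acts through the receptor Crhr2, whereas corticotropin-releasing hormone acts mainly through Crhr1. Crhbp encodes a secreted protein that binds corticotropin-releasing hormone and keeps it from its receptors. Nts encodes neurotensin, a peptide of limbic and hypothalamic neurons that acts through the receptors Ntsr1 and Ntsr2 and binds the sorting receptor sortilin (Sort1).

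The data came from naive C57BL/6J mice kept on a reversed light cycle and housed singly for a day or more, with no other treatment. There were 6 male and 7 female libraries. The mice were aged 8 weeks in male 3, male 5 and female 3, and 9 weeks in the other libraries (libraries are named by sex and replicate number). Medial amygdala cells were dissociated with Act-seq, in which transcription is blocked during dissociation, and captured by Drop-seq, in which a droplet pairs a cell with a barcoded bead. The labels name separate samples and not separate animals, so a p-value here speaks of differences between libraries, part of which may be technical.

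The kept libraries held 3718151 to 7874074 UMIs each, of which the neurons held 539302 to 1308412. Each library gave 189 to 428 neurons, 1879 from males and 1736 from females, and the median neuron held 1593 to 2247.5 UMIs by library. All 5 neuron markers (Snap25, Syt1, Rbfox3, Stmn2 and Meg3) were present in the neurons of both sexes. Of 43340 cell barcodes, 48 occurred in more than 1 library, 19 of them among kept cells. A neuron with Slc32a1 and without Slc17a6 is called a Slc32a1 neuron here (1371 cells, median 2275 UMIs), and the reverse a Slc17a6 neuron (1255 cells, 2145 UMIs). Another 51 neurons held both transporters, and 938 neurons, with a median of 1111 UMIs, held neither.

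In the GENCODE annotation the genes lie on 3 chromosomes of GRCm38, all on the minus strand. Ucn3 spans chromosome 13 from 3940688 to 3945349 with 2 exons, and Crhbp lies on the same chromosome from 95431371 to 95444924 with 7 exons. Nts spans chromosome 10 from 102481756 to 102490486 with 4 exons, and Crh spans chromosome 3 from 19693401 to 19695396 with 2 exons. The bases before the start sites of Ucn3 and Nts are shown because these genes were detected in the same neurons more often than any other pair of the 4. The sequences are from RefSeq on GRCm38.p6 and read 5′ to 3′ on the minus strand, at chr13:3945350-3945599 for Ucn3 and chr10:102490487-102490668 for Nts. Capitals mark matches to the motifs searched.
Ucn3: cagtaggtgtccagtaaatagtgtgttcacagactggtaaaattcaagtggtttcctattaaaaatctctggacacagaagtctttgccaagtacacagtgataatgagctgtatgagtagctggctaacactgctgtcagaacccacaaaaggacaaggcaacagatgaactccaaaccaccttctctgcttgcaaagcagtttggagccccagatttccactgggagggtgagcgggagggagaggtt
Nts: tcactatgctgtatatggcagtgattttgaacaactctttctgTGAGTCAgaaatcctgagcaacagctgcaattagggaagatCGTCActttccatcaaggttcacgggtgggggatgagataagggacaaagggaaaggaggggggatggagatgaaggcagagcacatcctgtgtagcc
The search covered the 250 bases before the RefSeq start on both strands, and the Nts stretch stops 68 bases short of that start because the GENCODE gene begins there. Nts held 1 AP-1 motif (TGANTCA) 207 to 201 bases before the start and 1 short cyclic AMP response element (TGACG, which also lies inside the full element) 166 to 162 bases before it. Ucn3 held no match, Crhbp held the short element 64 to 60 bases before its start, and Crh was not among the 3 of 4 genes matched. In promoters of the same length, 6.75% of 32851 held the AP-1 motif, 17.8% the short element, 12.4% the TATA box (TATAAA) and 1.55% the full element (TGACGTCA). A match is a description of letters and not of binding.

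All 4 genes were found mainly in neurons. Of each gene's UMIs over all kept cells, neurons held 98.2% for Crh, 97.2% for Ucn3, 93.9% for Nts and 96.1% for Crhbp. The neuron class is the authors' own, so these shares describe it and test nothing. Crh was detected in 95 of 3615 neurons (2.63%, 95% exact interval 2.13 to 3.20) and in 9 of 20912 cells of the other classes (0.0430%). Ucn3 was detected in 47 neurons (1.30%, 0.957 to 1.73) and in 22 cells of the other classes (0.105%). Nts was detected in 177 neurons (4.90%, 4.22 to 5.65) and in 116 other cells (0.555%), 54 of which were mural cells. Crhbp was detected in 44 neurons (1.22%, 0.886 to 1.63) and in 6 other cells (0.0287%). Neurons had a median of 1755 UMIs, against 2127 in the other classes, and the neurons with a gene were deeper, at medians of 2505 UMIs for Ucn3 to 3091 for Crhbp. Intervals here cover counting error only.

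**Figure D1:**
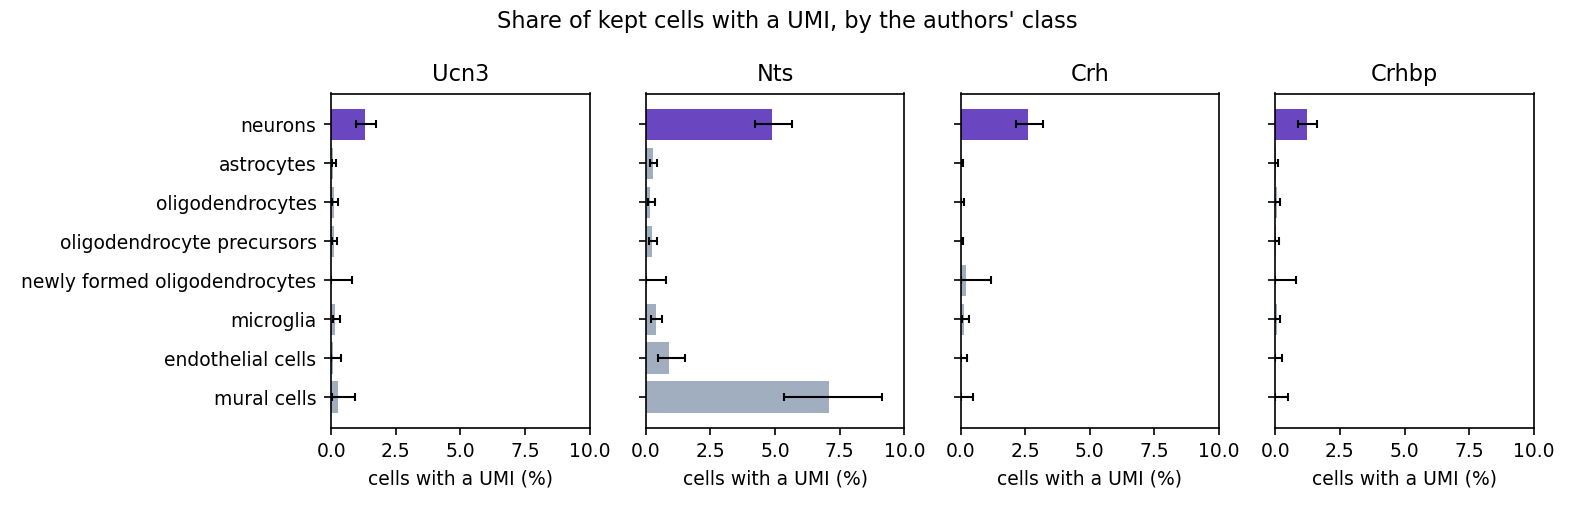
Share of kept cells with at least 1 UMI of each gene (horizontal axis, percent) in each class named by the authors, with exact 95% intervals as bars. Neurons hold the highest share of Ucn3, Crh and Crhbp (1.30%, 2.63% and 1.22%), while for Nts the mural cells (7.07%) lie above the neurons (4.90%).

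Within neurons the genes were concentrated in few cells. The 10 cells with most UMIs of a gene held 54.1% of its neuronal UMIs for Crh, 64.8% for Ucn3, 47.0% for Nts and 65.3% for Crhbp. The neuron richest in Nts, in female 4, held 227 Nts UMIs among 4185, which was 5.42% of its transcripts. The neuron richest in Ucn3, in male 5, held 100 UMIs among 4413. The neuron richest in Crh held 61 UMIs but was among the deepest cells of the data, with 71270 UMIs in male 3. Of the 3615 neurons, 3291 held none of the 4 genes, 285 held 1, 39 held 2, and 0 held more.

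The peptide genes divided differently between inhibitory and excitatory neurons. Ucn3 was found mainly in Slc32a1 neurons and was nearly absent from Slc17a6 neurons, while 10 of its 47 neurons held neither transporter. Nts was found in both types but at higher counts in Slc32a1 neurons. Crh was found in both, with a difference that missed the threshold. Crhbp, the binding protein, was mostly in Slc32a1 neurons. The question was put to sums of the Slc32a1 neurons and of the Slc17a6 neurons of each library (edgeR with the library as a block), in which 8.75% of 6191 genes were higher and 8.88% lower in Slc32a1 neurons. Of the 4 genes, 3 passed the filter on low counts, and 2 of the 3 were higher. Ucn3, at 0 in the Slc17a6 neurons of 11 of 13 libraries, passed that filter only through its counts in Slc32a1 neurons. The direction of its difference was therefore not open in this test. In such sums, fewer cells of a kind and less RNA per cell cannot be told apart.

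Crh was detected in 40 Slc32a1 neurons (2.92% of them) and 49 Slc17a6 neurons (3.90%), with 2 further cells that held both transporters and 4 that held neither. A Crh neuron held a median of 3.5 UMIs (highest 61) in the Slc32a1 type and 2 UMIs (highest 21) in the Slc17a6 type. In Slc32a1 neurons its level over libraries was 9.23 CPM (UMIs scaled to a common total) at the lowest, 48.6 at the median and 228 at the highest, and in Slc17a6 neurons 0, 26.6 and 109 CPM. The ranges overlapped widely, with Slc32a1 neurons higher in 8 of 13 libraries. The log2 difference was 0.88 ± 0.62 (SE, edgeR adjusted p = 0.389). Of the 40 Slc32a1 cells, 37 also held Gad1 or Gad2, the enzymes that make GABA, against 6 of the 49 Slc17a6 cells. In the Slc17a6 type 20 of the 49 also held Slc17a7, a second glutamate transporter, typical of cortical neurons. The share with Slc17a7 among Slc17a6 neurons without Crh is not given here, so this count marks no trait of the Crh cells.

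Ucn3 was detected in 34 Slc32a1 neurons (2.48%) and 2 Slc17a6 neurons (0.159%), and in 1 and 10 neurons with both and neither. The share in Slc17a6 neurons was close to the 0.105% in non-neuronal cells, and each of the 2 cells held 1 UMI. Over libraries its level in Slc32a1 neurons was 32.1 CPM at the lowest, 135 at the median and 393 at the highest, whereas in Slc17a6 neurons 11 of 13 libraries were at 0 and the highest stood at 2.74 CPM. The ranges did not overlap. With 706 UMIs against 2, the ratio of the pooled levels was 330 (95% counting interval 91.0 to 2730), and the log2 difference was 7.62 ± 0.28 (edgeR adjusted p = 4.0e-30, higher in 13 of 13 libraries). Because the filter let Ucn3 in only through Slc32a1 neurons, this p is no separate support for the direction. All 32 neurons with 5 or more Ucn3 UMIs except 5 were Slc32a1 neurons, and those 5 were 1 with both transporters and 4 with neither. Gad1 or Gad2 was found in 27 of the 34 Slc32a1 cells and in 3 of the 10 cells with neither transporter.

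Nts was detected in 89 Slc32a1 neurons (6.49%) and 66 Slc17a6 neurons (5.26%). A cell with it held a median of 8 UMIs (highest 227) in the Slc32a1 type and 2 UMIs (highest 27) in the Slc17a6 type. Over libraries the level in Slc32a1 neurons was 0 CPM at the lowest, 381 at the median and 1363 at the highest, and in Slc17a6 neurons 0, 31.5 and 143 CPM. Slc32a1 neurons were higher in 12 of 13 libraries, and female 3 had 0 Nts UMIs in both types, with 76 Slc32a1 neurons read. The log2 difference was 2.99 ± 0.37 (edgeR adjusted p = 1.3e-04), and the pooled levels were 461 and 59.2 CPM. Gad1 or Gad2 was found in 81 of the 89 Slc32a1 cells and in 4 of the 66 Slc17a6 cells. The Slc17a6 cells included 15 of more than 10000 UMIs, and these held 39.3% of their Nts UMIs.

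Crhbp was detected in 31 Slc32a1 neurons (2.26%) and 7 Slc17a6 neurons (0.558%). It held a median of 3 UMIs (highest 20) in the Slc32a1 cells and 1 UMI (highest 3) in the Slc17a6 cells. Its pooled level was 37.4 CPM in Slc32a1 neurons and 1.96 CPM in Slc17a6 neurons, a ratio of 19.1 (95% counting interval 9.85 to 42.5), and it was higher in Slc32a1 neurons in 10 of 13 libraries. It fell below the filter on low counts, and without that filter the log2 difference was 4.09 ± 0.37 (edgeR adjusted p = 6.9e-26). All 13 neurons with 5 or more Crhbp UMIs were Slc32a1 neurons. Of the 31 cells, 9 had more than 10000 UMIs and held 47.3% of their Crhbp UMIs.

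**Figure D2:**
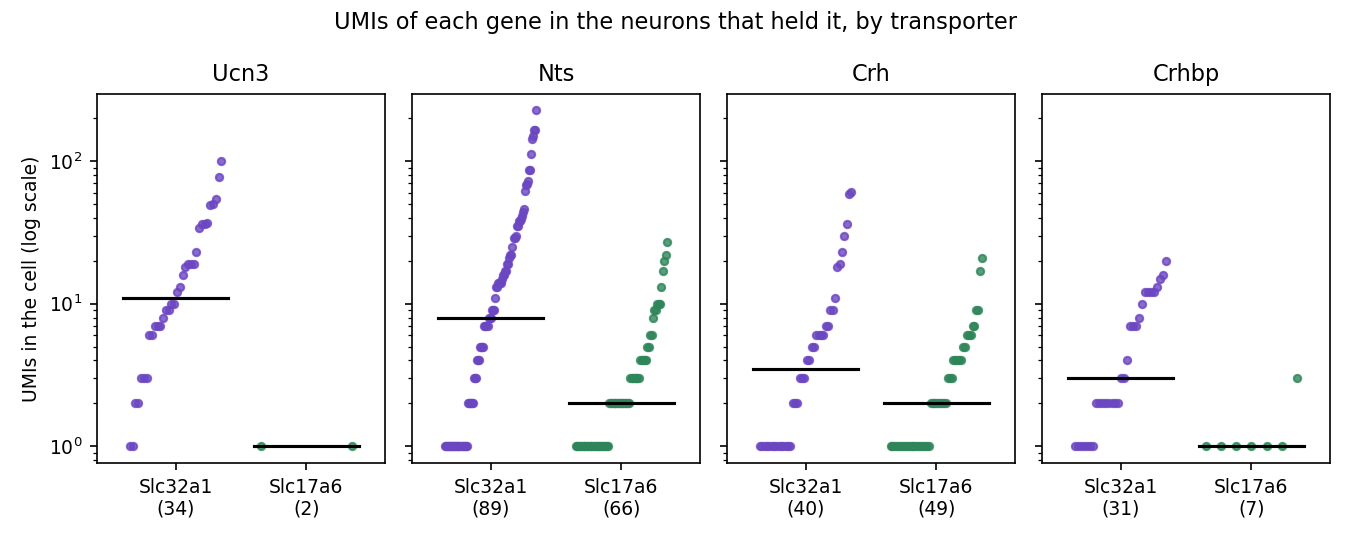
UMIs of each gene (vertical axis, log scale) in each neuron that held it, for Slc32a1 neurons (purple) left of Slc17a6 neurons (green). Points are cells in rising order, lines are medians, and numbers in parentheses are cells; the median is 11 UMIs against 1 for Ucn3, 8 against 2 for Nts, 3.5 against 2 for Crh and 3 against 1 for Crhbp.

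The receptors and sorting proteins of the 2 systems, 6 further genes of the pathway, were read in the same neurons (Ucn and Ucn2, the other urocortins, are not analysed here). Of 3 of these 6 genes that passed the filter, 1 was higher in Slc32a1 neurons and 0 were lower. Sorl1, a sorting receptor related to sortilin, was the one that passed, at 301 CPM in Slc32a1 neurons and 173 CPM in Slc17a6 neurons (log2 0.89 ± 0.11, edgeR adjusted p = 2.7e-08, higher in 12 of 13 libraries). Crhr1 had pooled levels of 21.8 and 33.7 CPM (log2 -0.57 ± 0.23, edgeR adjusted p = 0.0707). Sort1 had 181 and 201 CPM (log2 -0.10 ± 0.10, edgeR adjusted p = 0.561). Crhr2, the receptor for urocortin 3, stood at 23.0 CPM in Slc32a1 neurons and 2.18 CPM in Slc17a6 neurons, a ratio of 10.6 (counting interval 5.54 to 22.6), and was higher in 13 of 13 libraries. Ntsr1 stood at 31.3 and 7.83 CPM, a ratio of 3.998 (2.77 to 5.92), and was also higher in 13 of 13 libraries. Both lay below the filter on low counts, so no p is given.

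The receptor Ntsr2 was mainly in glia. It was detected in 10.2% of neurons and 94.1% of astrocytes, at 119 and 2414 CPM. Over libraries its level in neurons ran from 5.84 to 297 CPM, and the summed level of 5 astrocyte markers in the same neurons ran from 180 to 2737 CPM. The part of free astrocyte RNA in the neuronal Ntsr2 was not tested. Crhr1 was detected in 5.95% of neurons and 0.889% of oligodendrocyte precursors, Crhr2 in 2.90% of neurons and 1.05% of mural cells, and Ntsr1 in 4.23% of neurons.

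Ucn3 and Nts were often found in the same inhibitory neurons. Of 34 Slc32a1 neurons with Ucn3, 20 also held Nts (58.8%, 95% exact interval 40.7 to 75.4), against 69 of 1337 Slc32a1 neurons without Ucn3 (5.16%, 4.04 to 6.49). Seen from Nts, 20 of 89 cells with it (22.5%) also held Ucn3, against 14 of 1282 without it (1.09%). The 20 cells came from 11 libraries, 12 cells from 6 male libraries and 8 from 5 female libraries, with 0 to 3 in a library. Cells with Ucn3 were deeper than those without, but with each cell thinned to 1000 UMIs the shares were 18 of 29 (62.1%) and 4.75%, and in cells of at most 10000 UMIs they were 18 of 30 (60%, 40.6 to 77.3) and 5.07%. Without male 3, the library with most Ucn3 neurons, they were 17 of 29 (58.6%) and 4.76%. The cells that held both genes held a median of 16 Ucn3 UMIs, against 7.5 in the 14 cells with Ucn3 alone, and 24 Nts UMIs, against 7 in the 69 cells with Nts alone. Their median depth was 3974 UMIs, against 1562 and 2853.

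Crh and Crhbp also overlapped, in fewer cells. Of 40 Slc32a1 neurons with Crh, 9 held Crhbp (22.5%, 10.8 to 38.5), against 22 of 1331 without Crh (1.65%), and the 9 came from 7 libraries. Those 9 cells had a median of 13173 UMIs. Thinned to 1000 UMIs, 2 of 22 cells with Crh held Crhbp (9.09%, 1.12 to 29.2), against 1.31% of cells without it. In cells of at most 10000 UMIs the shares were 4 of 33 (12.1%, 3.40 to 28.2) and 1.41%. In Slc17a6 neurons 0 of 49 cells with Crh held Crhbp.

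The other pairs were rare. Ucn3 was found with Crh in 1 neuron and with Crhbp in 0 of 47. Nts was found with Crh in 3 Slc32a1 neurons and 1 Slc17a6 neuron, and with Crhbp in 1 neuron. Among the 34 Slc32a1 neurons with Ucn3, 0 with Crhbp allows a share of up to 8.82%, and among those without Ucn3 the share was 2.32%, so the difference was not detectable at this depth.

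**Figure D3:**
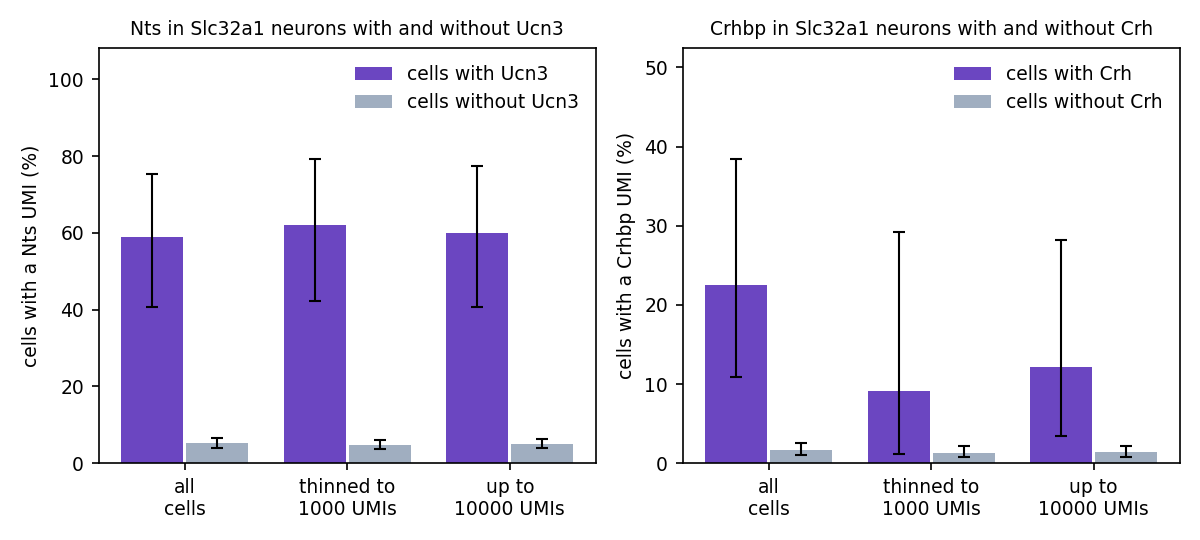
Share of Slc32a1 neurons with a Nts UMI among cells with Ucn3 (purple) and without it (grey), and with a Crhbp UMI among cells with Crh and without it, with exact 95% intervals. For Nts the share with Ucn3 is 58.8%, 62.1% and 60% over all cells, thinned cells and cells up to 10000 UMIs; for Crhbp the share with Crh is 22.5%, 9.09% and 12.1%.

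Neurons from males and females held the 4 genes at levels that overlapped throughout, and none of the 4 passed the test. The series as a whole concerns the control of parenting by the medial amygdala, and the sexes were compared here because sex is the condition that the libraries differ in. Sums of all neurons of a library were compared by edgeR, in which 0.0623% of 9635 genes differed between the sexes at an adjusted p under 0.05. Of the 4 genes, 0 were called by edgeR in neurons as a whole, 0 had an unadjusted p under 0.05, and 0 were called by DESeq2. The level of Crh in neurons was 11.8 CPM at the lowest, 47.6 at the median and 104 at the highest in males, and 4.37, 42.6 and 83.1 CPM in females. Ucn3 had 19.98, 58.1 and 159 CPM in males, and 13.6, 93.8 and 150 CPM in females. For both genes the male and female ranges overlapped over most of their width.

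The level of Nts was 62.9 CPM at the lowest, 229 at the median and 394 at the highest in males, and 34.9, 213 and 610 CPM in females, so that both the lowest and the highest library were female. Crhbp had 1.05, 11.4 and 40.5 CPM in males, and 0, 9.53 and 53.3 CPM in females. As means, Crh was 49.6 ± 30.9 CPM in males and 44.7 ± 26.4 in females (SD, n = 6 and 7). Over the 4 genes the SD between libraries of 1 sex was 0.589 to 1.04 times their mean. The log2 differences, male over female, were 0.13 ± 0.52 for Crh, -0.11 ± 0.59 for Ucn3, -0.21 ± 0.68 for Nts and -0.11 ± 0.79 for Crhbp (SE, edgeR adjusted p from 0.971 to 0.989). A 2-fold difference in 1 direction or both lies within 2 SE of each value, so a difference of that size was not detectable with these libraries.

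Within Slc32a1 neurons, where 0.0892% of 6724 genes differed between the sexes, 0 of the 4 genes passed in edgeR or DESeq2 and 0 had an unadjusted p under 0.05, and their log2 differences were 0.29 ± 0.73 for Crh, -0.66 ± 0.56 for Ucn3, -0.43 ± 0.83 for Nts and -0.22 ± 0.90 for Crhbp. Within Slc17a6 neurons, where 0.0832% of 6009 genes differed, Nts alone passed the filter on low counts, with a log2 difference of 0.45 ± 0.69 (edgeR adjusted p = 0.998). The shares of neurons with each gene, after thinning to 1000 UMIs, were also compared over libraries by an exact two-sided permutation test. For Nts the mean share was 4.43% in males and 3.54% in females (exact permutation p = 0.555), for Ucn3 1.34% and 1.10% (p = 0.847), for Crh 1.96% and 1.78% (p = 0.759), and for Crhbp 0.642% and 0.754% (p = 0.706). Unthinned, Nts was detected in 5.53% ± 3.18 of male neurons and 4.57% ± 2.97 of female neurons. Crhr2, the receptor for urocortin 3, averaged 13.8 ± 7.08 CPM in male libraries and 8.99 ± 4.62 CPM in female libraries (SD; log2 0.55 ± 0.35, edgeR adjusted p = 0.809).

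Markers of neighbouring regions differed between libraries. The summed level of 4 hypothalamic markers in neurons was 94.3 to 412 CPM in male libraries, against 4.998 to 18.5 CPM in 6 female libraries and 854 CPM in female 1. Markers of the central amygdala summed to 21.7 to 71.8 CPM in male libraries and 25.96 to 189 CPM in female libraries, with the highest in female 6. The part of these markers in the sex comparison was not tested.

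**Figure D4:**
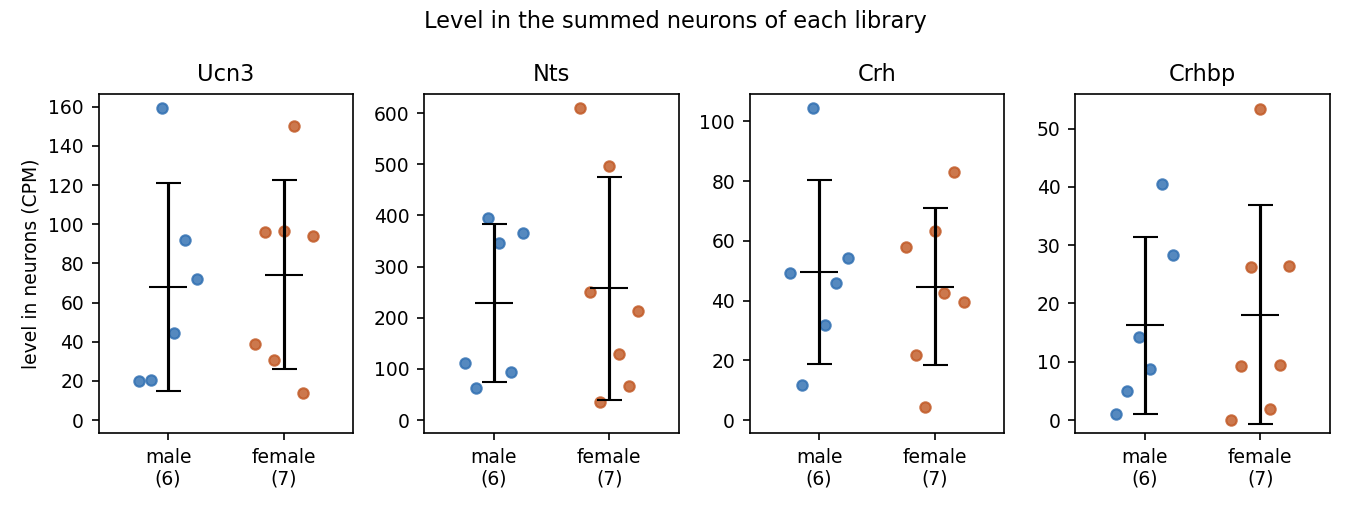
Level of each gene (vertical axis, CPM) in the summed neurons of each library, for males (left of each panel, n = 6) and females (right, n = 7). Points are libraries and bars are the mean with the SD; the points of the 2 sexes overlap for each gene, as for Nts, which runs to 394 CPM in males and 610 CPM in females.

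What else these neurons held was asked by comparing, within 1 transmitter type and within libraries, neurons with a gene and neurons without it. Libraries with at least 3 cells on each side were used, the cells were summed per library and side, and the sums were compared by edgeR with the library as a block. The gene that chose the cells is left out of the results. Neurons with 1 of the genes were mostly deeper than those without it. A cell with 0 UMIs of a gene may still express it, so the side without a gene is mixed. A gene with 0 UMIs in the cells of 1 side passed the filter on low counts only through the other side. The direction of such a difference was not open. The fold bounds given for these genes count UMIs and not cells, so they do not cover the spread from cell to cell.

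Inhibitory neurons with Ucn3 held more precursor transcript for substance P than other inhibitory neurons. The 24 cells compared held 0 UMIs of the precursors of enkephalin, neuropeptide Y and nociceptin. Somatostatin transcript was also higher, but its call was lost without any 1 of the libraries used. In 7 libraries, 24 Slc32a1 neurons with Ucn3 (median 3391.5 UMIs) were compared with 696 without it (2370 UMIs), and of 2416 genes tested 0.414% were higher and 3.23% lower. The balance depended on scaling: in edgeR 10 genes were higher and 78 lower with TMM, where the median log2 over all genes was -0.24, and 15 and 39 with DESeq2's scaling, where it was -0.01. DESeq2 itself called 24 genes higher and 43 lower. Tac1, the substance P precursor, was detected in 17 of 24 cells with Ucn3 and 153 of 696 without it, at 6103 and 858 CPM (log2 2.59 ± 0.20, edgeR adjusted p = 3.4e-35), and it was higher in 7 of 7 libraries. Sst, the somatostatin gene, was detected in 16 of 24 and 142 of 696 cells, at 14246 and 2757 CPM (log2 2.90 ± 0.52, adjusted p = 0.0411, higher in 7 of 7 libraries). The Sst call was lost without any 1 of the 7 libraries (adjusted p from 0.051 to 0.145), male 2, 3 and 6 and female 1, 2, 4 and 7. It was also lost when cells rich in markers of other cell types were left out (0.105). With the same cells thinned to 1000 UMIs, which left 21 and 605, Tac1 was detected in 71.4% and 19.2%. The fit to thinned counts could use only 6 cells with Ucn3, from male 3 and female 7, and called 2 genes, Nts and Sst, and not Tac1 (log2 1.86 ± 0.66, edgeR adjusted p = 0.5263). Penk, the enkephalin precursor, had 0 UMIs in the 24 cells and 912 CPM in the others, which is at least 44.2-fold lower against a floor of 3 UMIs over the group. Npy and Pnoc, the precursors of neuropeptide Y and nociceptin, were also at 0 in the 24 cells and at least 49.9-fold and 18.1-fold lower by UMIs. By cells, Penk was detected in 241 of 696 cells without Ucn3 (34.6%) and Npy in 82 (11.8%). For Npy, 0 of 24 cells therefore shows less than the bound. All 3 genes passed the filter only through the cells without Ucn3, so their direction was not open. Of the 22 neuropeptides and other secreted signals listed, 8 could be tested, of which 3 were higher (Tac1, Sst and the neurexin ligand Nxph1) and 3 lower, with a median log2 of -0.19 against -0.24 over all genes tested.

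The other genes that rose with Ucn3 included Nxph2, a neurexophilin that binds neurexins, at 591 and 74.7 CPM (log2 2.48 ± 0.46, edgeR adjusted p = 1.2e-05). Scg2, a granin of dense-core vesicles, stood at 10336 and 5557 CPM (log2 1.01 ± 0.15, adjusted p = 6.6e-09) and was higher in 6 of 7 libraries. Gpx3, a secreted glutathione peroxidase, was 1.56 ± 0.33 higher on the log2 scale and Man1a, a Golgi mannosidase, 1.98 ± 0.45 higher, each in 7 of 7 libraries. Man1a lost its call without male 3 or without male 6 (adjusted p = 0.116 and 0.120), and Scg2 without male 2 (0.113); without a filter on low counts Scg2, Gpx3 and Nxph1 were not called (0.18, 0.0695 and 0.2). Nxph1 also lost its call without male 3, male 6 or female 2 (0.201, 0.265 and 0.185). Of 11 genes for making and packing peptides, Scg2 was higher and Pam and Pcsk1n were lower, Pcsk1n neither with DESeq2's scaling (adjusted p = 0.979) nor without any 1 of male 2, male 6, female 1 and female 7 (0.0812 to 0.496). Pam, the enzyme that amidates peptides, stood at 199 and 846 CPM (log2 -1.91 ± 0.38, edgeR adjusted p = 5.4e-05).

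Of 4 transcription factors tested with Ucn3, 3 were lower and 0 higher. Meis2, a homeobox transcription factor, was at 0 UMIs in the 24 cells and detected in 113 of 696 others, at least 8.52-fold lower by UMIs (edgeR adjusted p = 8.5e-06). Because Meis2 passed the filter only through the cells without Ucn3, this p is no separate support for the direction. Nr2f1 and Nr2f2, the COUP-TF nuclear receptors, were lower by log2 differences of -2.62 ± 0.69 and -2.11 ± 0.65. Nr2f1 lost its call without female 2 (adjusted p = 0.0617) or female 7 (0.0513), and Nr2f2 lost it in DESeq2 and without any of 6 of the 7 libraries (0.0668 to 0.261), all but male 2. Alcam, a cell adhesion molecule, stood at 199 and 1441 CPM (log2 -2.68 ± 0.33, edgeR adjusted p = 5.7e-12, lower in 6 of 7 libraries). Prlr, the prolactin receptor, was the 1 hormone receptor of 2 tested that passed, at a log2 difference of -2.03 ± 0.64 (edgeR adjusted p = 0.0411), and lost its call in DESeq2 and without any of 6 of the 7 libraries (0.058 to 0.265), all but female 1. The number of genes called, 88, fell to 52 without male 3, 51 without male 6, 56 without female 2 and 46 without female 7.

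Nts itself was detected in 14 of the 24 cells with Ucn3 and 43 of 696 without it, at 4852 and 388 CPM. The log2 difference was 4.04 ± 1.24, in the same direction in 6 of 7 libraries, and it missed the threshold in edgeR (adjusted p = 0.233) but passed in DESeq2 (log2 4.33, adjusted p = 8.1e-05). After thinning it also passed, but in 6 cells with Ucn3 from 2 libraries (log2 4.70, edgeR adjusted p = 1.3e-05). Of the region markers, those of the central amygdala and of the hypothalamus summed to 0 CPM in the cells with Ucn3, against 77.6 and 313 CPM in the cells without it. Those of the cortex and basolateral amygdala summed to 26.6 and 379 CPM and those of the striatum to 69.1 and 98.3 CPM. The astrocyte markers summed to 175 and 450 CPM. The part of these markers in the result was not tested. The neurons with Ucn3 and Crh (1 of 24) or Crhbp (0 of 24) were too few to compare.

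Inhibitory neurons with Nts held more Ucn3 and less Npy. In 11 libraries, 88 Slc32a1 neurons with Nts (median 3026 UMIs) were compared with 1107 without it (2234 UMIs), and of 2549 genes 0.706% were higher and 1.10% lower. Ucn3 was detected in 20 of 88 and 11 of 1107 cells, at 1424 and 33.0 CPM (log2 5.63 ± 0.87, edgeR adjusted p = 0.0048, higher in 10 of 11 libraries), and was the 1 gene of 3 pathway genes tested that passed. Ucn3 passed the filter on low counts only through the cells with Nts. The direction of its difference was therefore not open in this test, and this p is no separate support for it. Man1a (log2 1.85 ± 0.27) and Gpx3 (1.11 ± 0.21) also rose with Nts; the comparisons for Ucn3 and Nts share cells. Nenf, which encodes the secreted factor neudesin, stood at 896 and 420 CPM (log2 1.04 ± 0.18, edgeR adjusted p = 4.0e-05). After thinning, which left 54 cells with Nts in 9 libraries, Vgf, Nenf and Gpx3 were not called (adjusted p = 0.132, 0.0861 and 0.201), and without a filter on low counts Nenf was not (0.0507).

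Of 11 genes for making and packing peptides, 3 rose with Nts and 0 fell. Vgf, a granin, stood at 1379 and 646 CPM (log2 1.11 ± 0.17, edgeR adjusted p = 2.4e-05, higher in 10 of 11 libraries). Scg2 was 0.98 ± 0.18 higher and Pcsk1, a convertase that cuts peptide precursors, 1.23 ± 0.32 higher on the log2 scale. Pcsk1 lost its call without a filter on low counts (adjusted p = 0.142) and without male 1, male 5 or female 4 (0.0555, 0.0661 and 0.0634), and Scg2 without male 2 or female 5 (0.0525 and 0.0507). Npy stood at 23.4 and 973 CPM (log2 -5.26 ± 0.40, edgeR adjusted p = 1.0e-11, lower in 11 of 11 libraries), and Pnoc was also lower (log2 -2.05 ± 0.43), though not without male 1 (adjusted p = 0.0613). Those were the 2 lower of 8 neuropeptides and secreted signals tested, with 0 higher. Erbb4, the neuregulin receptor, and Lamp5, a membrane protein of interneurons, stood at 195 and 54.6 CPM in cells with Nts, against 691 and 383 CPM in cells without it (log2 -1.91 ± 0.23 and -2.82 ± 0.37). Central amygdala markers summed to 2.58 CPM in the cells with Nts and 80.8 CPM in those without it, those of the cortex and basolateral amygdala to 77.3 and 390 CPM, and those of the hypothalamus to 255 and 305 CPM. Their part in the result was not tested.

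Excitatory neurons with Crh held more thyrotropin-releasing hormone and cholecystokinin transcript and less Penk and Tac1. In 10 libraries, 48 Slc17a6 neurons with Crh (median 2049 UMIs) were compared with 956 without it (2100 UMIs), and of 2489 genes 1.85% were higher and 5.18% lower. Trh, the thyrotropin-releasing hormone gene, was detected in 39 of 48 and 121 of 956 cells, at 3596 and 298 CPM (log2 3.57 ± 0.22, edgeR adjusted p = 4.4e-54). Cck, the cholecystokinin gene, was detected in 45 of 48 and 407 of 956 cells, at 4909 and 2021 CPM (log2 1.12 ± 0.18, adjusted p = 1.1e-07). Sema3e, a secreted guidance cue, stood at 507 and 90.9 CPM (log2 2.78 ± 0.38), and Lhfp, a tetraspan membrane protein gene, at 241 and 44.8 CPM (log2 2.61 ± 0.40). Each of these 4 genes was higher in 10 of 10 libraries. Penk stood at 285 and 1376 CPM (log2 -2.69 ± 0.30, edgeR adjusted p = 1.7e-15) and Tac1 at 77.2 and 622 CPM (log2 -2.97 ± 0.43). Of 9 neuropeptides and secreted signals tested, 3 were higher (Trh, Cck and Nxph1) and 3 lower (Penk, Tac1 and the growth factor Bdnf), with a median log2 of 1.04 against -0.35 over all genes tested.

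The genes for making and packing peptides went both ways with Crh, 3 of 11 higher and 3 lower. Chga, the granin chromogranin A, stood at 2756 and 982 CPM (log2 1.48 ± 0.20, edgeR adjusted p = 6.8e-11, higher in 10 of 10 libraries). Vgf was 1.35 ± 0.28 and the convertase Pcsk2 1.18 ± 0.23 higher on the log2 scale, whereas Pcsk1n, which encodes a convertase inhibitor, was -1.11 ± 0.19 and Pam -1.30 ± 0.26. Chgb, the third lower gene at -0.63 ± 0.20, lost its call without any 1 of male 5, male 6, female 1, female 2, female 4 and female 6 (adjusted p from 0.056 to 0.285). After thinning, which left 22 cells with Crh in 5 libraries, Pam and Bdnf were not called (0.171 and 0.545), and without a filter on low counts Pcsk2 was not (0.0548). Sparcl1, a secreted matrix protein gene, stood at 145 and 1312 CPM (log2 -3.23 ± 0.32, edgeR adjusted p = 1.0e-20, lower in 10 of 10 libraries). Resp18, a secretory granule protein gene, stood at 763 and 2438 CPM (log2 -1.78 ± 0.22). Nr2f2 was detected in 1 of 48 and 319 of 956 cells (log2 -5.64 ± 0.83), which made it the 1 lower of 5 transcription factors tested. Nts was detected in 1 of the 48 cells, Ucn3 in 0 and Crhbp in 0. Astrocyte markers summed to 81.5 and 397 CPM, oligodendrocyte markers to 235 and 553 CPM, hypothalamic markers to 4.79 and 56.1 CPM and striatal markers to 177 and 107 CPM, and their part in the result was not tested. Without male 5 the number of genes called, 175, became 289.

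Inhibitory neurons with Crhbp held more Crh and the calcium-binding protein gene Calb1, and less Alcam, Atp2b4 and Tac1. In 8 libraries, 29 Slc32a1 neurons with Crhbp (median 3391 UMIs) were compared with 871 without it (2328 UMIs), and of 2584 genes 2.24% were higher and 4.99% lower. Crh was detected in 8 of 29 and 16 of 871 cells, at 486 and 36.5 CPM, and was higher in 6 of 8 libraries. The level of 486 CPM rests on 109 Crh UMIs. Of these, 59 lay in a cell of male 3 that held 30250 UMIs, and 30 in a cell of female 4. After thinning, Crh was detected in 11.5% of cells with Crhbp and 1.33% of cells without it. Crh lay below the filter on low counts, and without the filter its log2 difference was 2.95 ± 0.47 (edgeR adjusted p = 4.1e-07). DESeq2 gave 3.13 ± 1.01 (adjusted p = 0.032). Calb1 stood at 717 and 177 CPM (log2 1.54 ± 0.35, edgeR adjusted p = 9.2e-04), though not called without male 6 (adjusted p = 0.0688). Cplx1, the vesicle-release regulator complexin 1, stood at 343 and 90.1 CPM (log2 1.86 ± 0.38). Ndufv3 and Uqcrh, subunits of respiratory complexes I and III, were 2.01 ± 0.37 and 1.34 ± 0.33 higher on the log2 scale in 8 of 8 libraries, and Uqcrh lost its call without male 5 (adjusted p = 0.0575). Tmtc4, a glycosylation enzyme gene, was 1.78 ± 0.39 higher. Without a filter on low counts Calb1, Uqcrh and Tmtc4 were not called (adjusted p = 0.128, 0.269 and 0.0603).

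Lypd1, a membrane-anchored modulator of nicotinic receptors, had 0 UMIs in the 29 cells with Crhbp and was detected in 290 of 871 cells without it, at least 25.2-fold lower. Alcam stood at 285 and 1446 CPM and Atp2b4, a calcium pump of the plasma membrane, at 214 and 1155 CPM (log2 -2.58 ± 0.33 and -2.61 ± 0.35), each lower in 8 of 8 libraries. Tac1 was the 1 lower of 8 neuropeptides and secreted signals tested (log2 -2.29 ± 0.50, edgeR adjusted p = 0.00358), though not without male 6 (adjusted p = 0.0995), and Scg2 the 1 lower of 10 packing genes (log2 -1.14 ± 0.27). Sorl1 stood at 98.0 and 317 CPM (log2 -1.72 ± 0.41, edgeR adjusted p = 0.00206). Ucn3 had 0 UMIs in the 29 cells and 177 CPM in the others, where those UMIs lay in 24 of 871 cells (2.76%). At that share a difference was not detectable in 29 cells. Nts was detected in 1 of 29 and 58 of 871 cells; that 1 cell held 72 UMIs, so the pooled levels were 321 and 448 CPM, while the log2 difference was -2.71 ± 0.64 (edgeR adjusted p = 0.0052, lower in 6 of 8 libraries). The Nts call was lost without female 3 (adjusted p = 0.153) and in DESeq2 (0.0766). Central amygdala markers summed to 4.19 CPM in the cells with Crhbp and 78.2 CPM in those without it, hypothalamic markers to 8.38 and 316 CPM, those of the cortex and basolateral amygdala to 176 and 375 CPM, and astrocyte markers to 226 and 451 CPM. Their part in the result was not tested. The number of genes called, 187, became 106 without male 3, 68 without male 5, 89 without male 6, 486 without female 3 and 99 without female 7.

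Excitatory neurons with Nts held less Ndnf, Adcy2 and C1ql3 than other excitatory neurons, while the call of lower Cck depended on scaling. In 11 libraries, 65 Slc17a6 neurons with Nts (median 3597 UMIs) were compared with 1051 without it (2081 UMIs), and of 3949 genes 0.127% were higher and 1.34% lower. In edgeR, DESeq2's scaling moved the median log2 over all genes to 0.14, against -0.13 with TMM, and left 1 gene higher and 8 lower, in place of 5 and 53. DESeq2 itself called 16 genes higher and 26 lower. Necab1, a calcium-binding protein gene, stood at 335 and 74.5 CPM (log2 1.60 ± 0.35, edgeR adjusted p = 0.00173), but was higher in only 7 of 11 libraries and was not called with DESeq2's scaling (adjusted p = 0.0555). The other 4 higher genes were AW551984, Ak5, Nefm and Tppp3, at log2 differences of 1.26 to 1.60. Each lost its call without male 2 (adjusted p from 0.0855 to 0.308). Thinning the same cells left 58 with Nts and 893 without it. AW551984 was then in 1.72% of cells with Nts and 2.69% without it, and Tppp3 in 3.45% and 5.49%, so both were lower with Nts. Ak5 stayed higher, at 8.62% and 5.15%, as did Nefm, at 17.2% and 6.495%. Without a filter on low counts Ak5, Nefm and Tppp3 were not called (0.0644, 0.1003 and 0.135). Ndnf, a secreted neuronal growth factor gene, stood at 11.9 and 491 CPM (log2 -5.09 ± 0.48, edgeR adjusted p = 4.0e-19), Adcy2, an adenylyl cyclase, at 15.9 and 168 CPM, and C1ql3, a secreted synaptic protein gene, at 37.7 and 315 CPM. All 3 were lower in 11 of 11 libraries. Of 9 neuropeptides and secreted signals tested, 5 were lower (Cck, Cartpt, Adcyap1, Nxph1 and Nxph4) and 0 higher, with a median log2 of -1.31, but 0 of these 5 were called with DESeq2's scaling (adjusted p from 0.247 to 0.628). Central amygdala markers summed to 81.1 CPM in the cells with Nts and 25.9 CPM in those without it, hypothalamic markers to 15.8 and 58.4 CPM, and those of the cortex and basolateral amygdala to 342 and 247 CPM. Their part in the result was not tested. The number of genes called, 58, became 88 without male 1, 25 without male 2, 29 without male 3 and 38 without female 4. Whether the companions of Nts differ between the 2 transmitter types was not tested.

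Inhibitory neurons with Crh held less Atp2b4 and Meis2 than other inhibitory neurons. In 9 libraries, 34 Slc32a1 neurons with Crh (median 3023 UMIs) were compared with 934 without it (2362 UMIs). Of 3056 genes 0% were higher in edgeR (223 had an unadjusted p under 0.05 in either direction, and DESeq2 called 1 higher) and 0.164% lower. DESeq2's scaling moved the median log2 over all genes to -0.02, against -0.20 with TMM. Atp2b4 stood at 341 and 1117 CPM (log2 -1.75 ± 0.33, edgeR adjusted p = 8.1e-05) and Meis2 at 11.6 and 169 CPM, with 3 UMIs in the cells with Crh (log2 -3.91 ± 0.74). Apoe, an apolipoprotein gene of astrocytes, stood at 73.6 and 623 CPM (log2 -2.70 ± 0.46), and astrocyte markers summed to 237 and 453 CPM. Apoe lost its call when cells rich in markers of other cell types were left out (adjusted p = 0.407), and with 2 UMIs required of a transporter neither it (0.9696) nor Atp2b4 (0.184) was called. In DESeq2 with no filter Atp2b4 and Meis2 were not called (0.0658 and 0.0615). Hypothalamic markers summed to 22.4 and 319.9 CPM, those of the cortex and basolateral amygdala to 151 and 380 CPM, and those of the central amygdala to 103 and 72.8 CPM, and their part in the result was not tested. Crhbp was detected in 7 of 34 and 12 of 934 cells, at 263 and 16.6 CPM, and Nts in 3 of 34 and 70 of 934 (log2 -2.26 ± 0.98, edgeR adjusted p = 0.647). The Nts difference passed the threshold without male 6 (log2 -3.74, adjusted p = 2.4e-05) and without female 1 (-3.48, 0.000357). The number of genes called, 5, became 14 without male 1, 10 without male 3, 11 without female 5 and 9 without female 7.

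**Figure D5:**
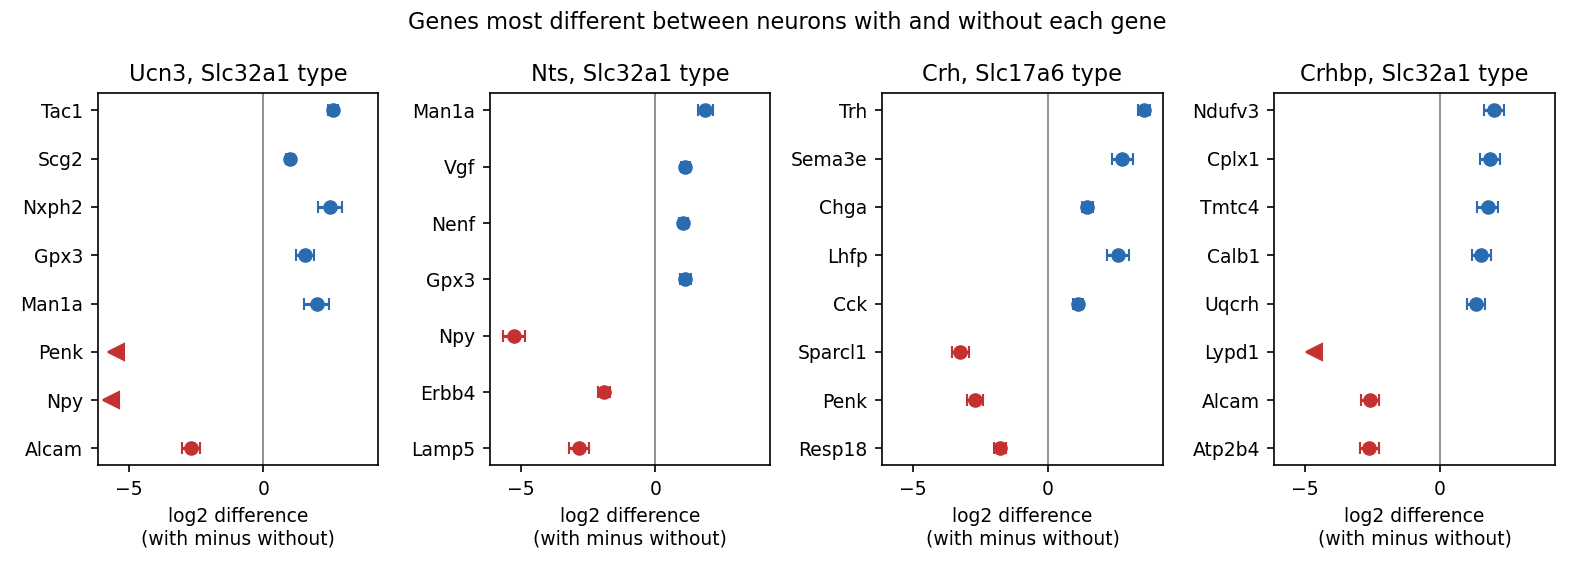
Log2 difference (horizontal axis) of the genes named for neurons with and without Ucn3, Nts, Crh and Crhbp, with the SE as bars. Triangles mark genes with 0 UMIs in the cells with the gene, drawn at their bound; Tac1 lies at 2.59 with Ucn3 and Trh at 3.57 with Crh, while Npy lies at -5.26 with Nts.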

How the data were processed

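The authors deposited 1 table of UMI counts, 16961 genes by 43388 cells, whose cell names give the library and the authors' cell class; the names of all cells were mapped and 0 columns were left unmapped. The submitters' processing notes name STAR 2.5.0a, bcl2fastq 2.17.1.14 and the mm10 build. The counter, and whether it used strand, are not given in the sources used here.

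Cells with at least 500 genes were kept (24808), and 281 (1.13%) called doublets by Scrublet in scanpy 1.11.5, run per library, were left out, which left 24527 cells (11542 male, 12985 female) and 3615 of 10166 deposited neurons. Kept neurons held up to 83979 UMIs, and 142 held more than 10000. Free RNA was not subtracted. The ratio of Nts to Ucn3 UMIs, which 1 free source would hold constant, was 3.31 in neurons, 3.6 in astrocytes, 1.4 in oligodendrocytes, 3.25 in oligodendrocyte precursors, 2.29 in microglia, 17 in endothelial cells and 52.5 in mural cells. Outside neurons each ratio rests on 1 to 7 Ucn3 UMIs.

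UMI counts were summed per library and cell group, and the sums were compared with edgeR 4.0.16 in R 4.3.3 (quasi-likelihood test, TMM scaling, genes filtered by filterByExpr, Benjamini-Hochberg adjustment over all genes tested, threshold 0.05). DESeq2 1.42.0 was the alternative. The SE is the log2 difference over the square root of F. CPM are UMIs scaled to a common total of UMIs over the cells summed. For shares, cells were thinned to 1000 UMIs. Intervals are 95% exact (Clopper-Pearson for shares, Poisson for levels), the floor is 3 UMIs, and both cover counting error only. Levels of different genes were not compared with each other.

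The genes and lists were chosen with earlier results of these data known, among them a GABAergic cluster led by Ucn3 and Nts, so the joint detection of those genes is not independent support for it. In each comparison of cells with and without a gene, the text names up to 5 higher and 3 lower genes with the smallest adjusted p, a log2 difference of at least 1 in size and a UMI in at least 10% of the cells of the higher side, and members of the lists past the threshold. A gene that this rule names for Nts in Slc32a1 neurons is not reported here. A description by cluster was planned and not run. The comparisons for Nts in Slc17a6 neurons and Crh in Slc32a1 neurons, DESeq2 without a filter and the cells of at most 10000 UMIs were added after the data were seen. Alternatives were another scaling, no filter, DESeq2, a stricter transporter count, all deposited neurons, removal of cells with over 1% of UMIs from markers of other cell types, thinning and leaving out each library.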

Additional observations from a re-analysis of the deposited data

Results flagged for a closer look

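Of 48 sets of 6 or 7 libraries examined, 9 had 1 library far from the rest of its sex. Chance gives about 1 such set in 20 for independent and normally spread values. These sets share cells, and their values rest on few cells, so that rate does not hold for them. Of the 9, 4 come from 2 cells with 1 Ucn3 UMI each, counted as a level and as a share. In those 4 sets every other library of that sex was at 0. Among males, male 3 had the highest share of neurons with Ucn3, 4.62% (11 of 238) against 1.57% in the next, and of neurons with Nts, 11.8% (28 of 238) against 5.84%. Of its Slc17a6 neurons 12.5% (11 of 88) held Nts, against 7.09% in the next male. Male 3 also held 1 of the 2 Slc17a6 neurons with Ucn3, 1.77 CPM and 1.136% of such neurons there, and female 2 held the other, 2.74 CPM and 0.877%; every other library of each sex was at 0. Female 1 had the highest share of neurons with Nts among females, 10.5% (20 of 190) against 5.37% in the next. In Slc32a1 neurons female 4 stood at 165.8 CPM of Crhbp, from 3 of 73 cells, against 56.1 CPM in the next female. Male 3 had the deepest neurons of any library, with a median of 2247.5 UMIs.

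Nts was detected in 7.07% of mural cells, a class outside the neurons compared, above the 0.555% in all classes other than neurons.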

How the results depend on the processing

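Of the values recomputed under the alternatives, 1586 kept their direction and side of the threshold or their size, 166 were no longer past the threshold, 7 newly passed it, 43 moved and 27 changed sign. The sign changes touched the sex differences, none of which passed the threshold, and the cause was not tested. For Crh in neurons the log2 difference was -0.0093 with all deposited neurons and -0.54 with libraries of 9 weeks. For Crh in Slc32a1 neurons it was -0.60 with libraries of 9 weeks, and for Nts in Slc17a6 neurons -0.65. The difference in the share of cells with Crh was -0.303 points at 2000 UMIs and -0.113 with all deposited neurons, and that for Crhbp 0.0972 without thinning. Leaving out each library in turn gave -0.55 to 0.14 for Ucn3, -0.43 to 0.20 for Nts, -0.23 to 0.38 for Crh and -0.69 to 0.13 for Crhbp in neurons, -0.40 to 0.61 for Crh and -0.92 to 0.041 for Crhbp in Slc32a1 neurons, and -0.018 to 0.73 for Nts in Slc17a6 neurons. The shares ranged over -0.277 to 0.399 points for Ucn3, -0.215 to 0.379 for Crh and -0.238 to 0.044 for Crhbp.

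The replicate block called 8, 7 and 4 genes by sex in neurons, Slc32a1 neurons and Slc17a6 neurons, and turned Crh in Slc32a1 neurons to -0.20. Samples of the same number did not deviate together (r from -0.064 to 0.083). Counting error also lowers such an r, so it cannot exclude that the numbers pair the libraries.

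Counts of called genes moved without a filter on low counts, which gave 12 and 16 genes by sex in Slc32a1 and Slc17a6 neurons, 503 with Ucn3, 314 with Nts, 1159 with Crh, 1015 with Crhbp, 447 with Nts in Slc17a6 neurons and 237 with Crh in Slc32a1 neurons. Thinning cells, which also left fewer cells and libraries to fit (6 cells with Ucn3 in 2 libraries, 16 Slc17a6 cells with Nts in 4), left 239 genes by transmitter type, 2 with Ucn3, 7 with Nts, 31 with Crh and 2 with Nts in Slc17a6 neurons. DESeq2's scaling within edgeR left 54 with Ucn3, 9 with Nts in Slc17a6 neurons and 3 with Crh in Slc32a1 neurons. DESeq2 with no filter gave 53 with Ucn3, 77 with Nts and 3 with Crh in Slc32a1 neurons. All deposited neurons gave 367 with Ucn3, 72 with Nts and 32 with Crh in Slc32a1 neurons, and 2 UMIs of a transporter gave 3 there. Counts without 1 library ranged over 6 to 10 by sex in Slc32a1 neurons, 46 to 96 with Ucn3, 126 to 289 with Crh, 68 to 486 with Crhbp, 25 to 88 with Nts in Slc17a6 neurons and 4 to 14 with Crh in Slc32a1 neurons.

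Nts in cells with Ucn3 was 4.33 in DESeq2, 4.33 in DESeq2 with no filter, and 4.05 with all deposited neurons, each past the threshold, and 4.70 thinned, also past it, from 6 cells with Ucn3 in 2 libraries. Nts in cells with Crhbp was -4.52 and -4.56 in DESeq2 and -2.56 with 2 UMIs of a transporter, none past it, and -2.71 to -2.27 without 1 library. Nts in Slc32a1 cells with Crh was -2.77 with no filter (past it) and -3.74 to -1.33 without 1 library. Crhbp fell to 9.09% of Crh cells on thinning. Few cells with each gene limit the comparisons. Thinned cells with Crhbp, and thinned Slc32a1 cells with Crh, could not be fitted.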

Other observations

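Outside neurons, Nts was found mainly in mural cells, which wrap the vessels of the brain. It was detected in 54 of 764 mural cells (7.07%, 95% exact interval 5.35 to 9.12), with 105 UMIs in all and at most 8 in a cell, against 13 of 1463 endothelial cells (0.889%) and 18 of 6445 astrocytes (0.279%). The 54 cells came from 12 of 13 libraries, and the level of Nts in mural cells ran from 0 to 175 CPM over libraries.

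The mural cells with Nts carried pericyte transcripts. Rgs5 and Vtn, known pericyte genes, were detected in 54 and 53 of the 54 cells with Nts, against 547 and 555 of 710 without it, at 13578 and 17773 CPM against 6572 and 5745 CPM. Kcnj8 and Abcc9, which form the pericyte potassium channel, were detected in 72.2% and 63.0% of cells with Nts and in 31.7% and 28.6% of cells without it. The smooth muscle genes Acta2, Tagln and Myh11 were detected in 9.26%, 5.56% and 9.26% of cells with Nts, against 45.9%, 43.9% and 49.3% of cells without it. Dcn, a fibroblast gene, was detected in 3.70% and 18.6%, and the fibroblast gene Lum in 0 of 54 and 99 of 710. The neuronal gene Snap25 was detected in 7.41% and 5.63%, at 77.4 and 28.1 CPM, and Meg3 in 40.7% and 29.7%, at 555 and 262 CPM. Stmn2 went the other way, at 1.85% and 3.38%. Slc32a1 was detected in 1 of 54 cells with Nts and 6 of 710 without it, and Slc17a6 in 0 and 5. The part of neuronal RNA in the mural Nts was not tested. Cells with Nts were shallower, at a median of 1323 UMIs against 1661. These shares are over cells and were not tested over libraries.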
